A study of Bos taurus with 90 samples.

Results

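The duodenum epithelium of dairy cows fed rice straw was compared with that of cows fed corn stover. The members were the 12 duodenum samples with these diets in their labels, 6 for rice straw and 6 for corn stover, of 90 samples in the series, and every one of the 338 miRNAs listed for duodenum was described. All cows were mid-lactation Chinese Holstein dairy cows, no genotype, drug or surgical treatment was stated, and 6 more cows were fed alfalfa hay. The study took rumen, duodenum, jejunum, liver and mammary gland from the cows after slaughter and sequenced the small RNA of each tissue, and its title asks how miRNAs take part in milk protein metabolism when forage is of low quality. Rice straw and corn stover are the fibrous crop residues in this design and alfalfa hay is the higher quality forage. RNA was taken from ground tissue, so the values can include muscle, vessels and immune cells beside the epithelium. In such bulk tissue, fewer cells of a type and less of an RNA per cell cannot be told apart.

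MicroRNAs are short RNAs that guide Argonaute proteins to messenger RNAs with matching sites and lower their translation or stability. Many are made from hairpins that lie next to each other and are transcribed together, so neighbours often share a level. In the small intestine, the miR-192, miR-194 and miR-215 group and the miR-200 family are typical of the epithelium that digests and absorbs feed, whereas miR-143 and miR-145 are typical of smooth muscle and fibroblasts, and miR-142, miR-146 and miR-223 of leukocytes.

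The values are CPM, the reads of a miRNA scaled to the same total of reads mapped to all annotated miRNAs in each library (10000 CPM is 1% of them). Mapped reads, inferred from the smallest step between CPM values, ran from 5515376 to 15621501 with rice straw and from 4925942 to 9994617 with corn stover, and 3 reads were worth 0.192 to 0.609 CPM in these libraries. The difference in mapped reads was within the spread between cows (two-sided exact permutation test over 6 and 6 samples, p = 0.188, Benjamini-Hochberg adjusted p = 0.537 over 3 measures, smallest p possible 0.00216). The number of miRNAs above 1 CPM was 330 ± 3.45 (SD, n = 6) with rice straw and 328 ± 2.66 (SD, n = 6) with corn stover. The 10 most abundant miRNAs took 70.8% ± 3.78 (SD, n = 6) of reads with rice straw and 71.9% ± 1.11 (SD, n = 6) with corn stover. Neither measure separated the diets (exact permutation, p = 0.368 and p = 0.537). On the first principal component, which held 27.5% of the variance of the 12 libraries, rice straw replicates 1 and 3 lay at the opposite ends, at 8.53 and -6.001, with all corn stover libraries between them. Without these 2 libraries the count of miRNAs past the adjusted threshold was 1, and the lists and members whose values moved are named with the lists. The labels do not say whether a replicate number is a cow, a day or a run, and p-values measure only the spread between these samples.

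**Figure D1:**
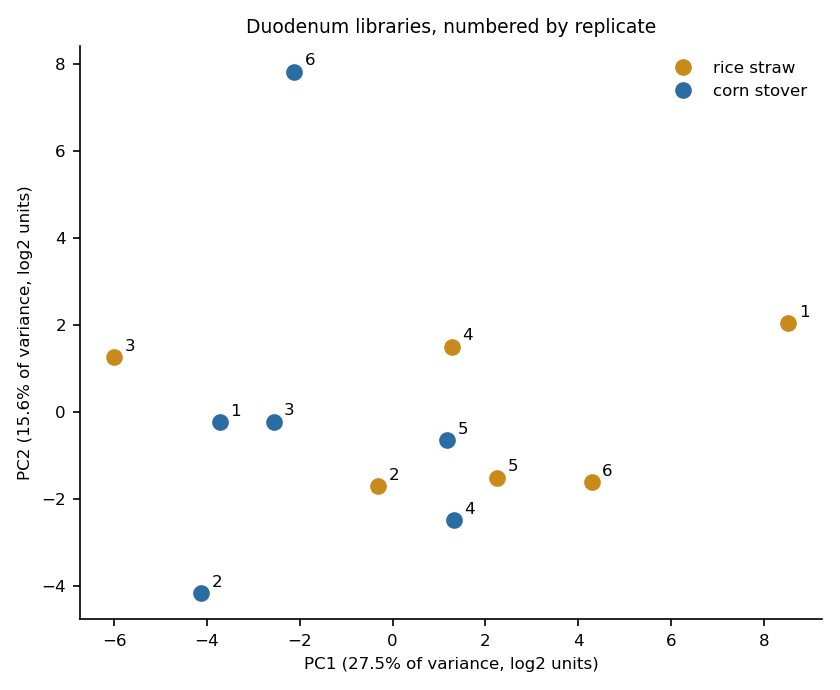
Principal components of log2(CPM + 1) in the 12 duodenum libraries, with PC1 (27.5% of variance) on the horizontal axis and PC2 (15.6%) on the vertical axis, 1 point per library, numbered by replicate and coloured by diet. The diets overlap on both axes, and the rice straw libraries are spread more widely along PC1.

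The tissue label was checked against miRNAs of known cell types. The 8 listed miRNAs of the intestinal epithelium summed to 239139 to 421804 CPM with rice straw and 314929 to 386502 CPM with corn stover, the largest share of any list. The 5 miRNAs of smooth muscle and stroma summed to 129749 to 220351 CPM with rice straw and to 109432 to 162169 CPM with corn stover, so every library labelled epithelium also held a large share of stromal miRNA. Leukocyte miRNAs, 7 in number, ran from 18034.5 to 36882 CPM and from 22009 to 47520.5 CPM. The 3 miRNAs of blood cells stayed at 320 to 633 CPM and 315 to 605 CPM, and the 4 of striated muscle at 221 to 423 CPM and 158 to 329 CPM. No miRNA of the liver list was listed in these files.

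The same miRNAs led both diets. miR-192, which restrains cell division in gut epithelium, was the most abundant miRNA in 5 of 6 rice straw and 6 of 6 corn stover libraries. It held 19.3% to 32.7% of reads with rice straw (median 238140 CPM) and 23.1% to 28.8% with corn stover (median 274115 CPM). The rice straw cows covered the whole range of the corn stover cows, and the log2 difference, rice straw minus corn stover, was -0.13 (95% interval -0.38 to 0.12; limma adjusted p = 0.655). miR-143, a smooth muscle and stromal miRNA, was second in both diets at 17.3% ± 3.08 (SD, n = 6) and 14.0% ± 1.95 (SD, n = 6). In 1 rice straw library, replicate 5, miR-143 exceeded miR-192, with 212623 CPM against 207392 CPM. Its log2 difference was 0.30 (95% interval 0.01 to 0.60; limma adjusted p = 0.342).

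miR-215, from the same family as miR-192, varied widely among rice straw cows. Rice straw cows had 21032, 26291, 91487, 69240, 25640 and 27556 CPM, and corn stover cows 64549, 73392, 83168, 57957, 40351.5 and 70597 CPM. Of the rice straw values, 4 were thus below every corn stover value, and replicates 3 and 4 were within or above the corn stover range. The log2 difference was -0.79 (95% interval -1.45 to -0.12; limma adjusted p = 0.270). The alignment allowed mismatches and several mappings per read, so how the reads of these near relatives were divided is uncertain.

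For miR-26a, which targets regulators of cell growth, the means were 6.62% ± 1.30 (SD, n = 6) with rice straw and 7.66% ± 1.01 (SD, n = 6) with corn stover. miR-21-5p, which is raised in many inflamed or growing tissues, held 4.35% ± 0.409 and 4.17% ± 0.457, and miR-148a, known for control of lipid uptake, 4.01% ± 0.660 and 3.75% ± 0.669. The ranges of the diets overlapped for each of these 3. miR-27b held 3.33% ± 0.255 and 2.98% ± 0.362, and miR-142-5p, a leukocyte miRNA, 2.16% ± 0.535 and 2.29% ± 0.630. For miR-191 the lowest, median and highest values were 15321, 17800.5 and 22778 CPM with rice straw and 20824, 21429.5 and 25468 CPM with corn stover, a log2 difference of -0.27 ± 0.116 (SE). For miR-22-3p, a regulator of metabolism and muscle growth, they were 16799, 19930 and 24813 CPM and 12689, 16282 and 18819 CPM, a log2 difference of 0.33 ± 0.152 (SE). Neither passed the adjusted threshold (limma adjusted p = 0.312 and 0.342).

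**Figure D2:**
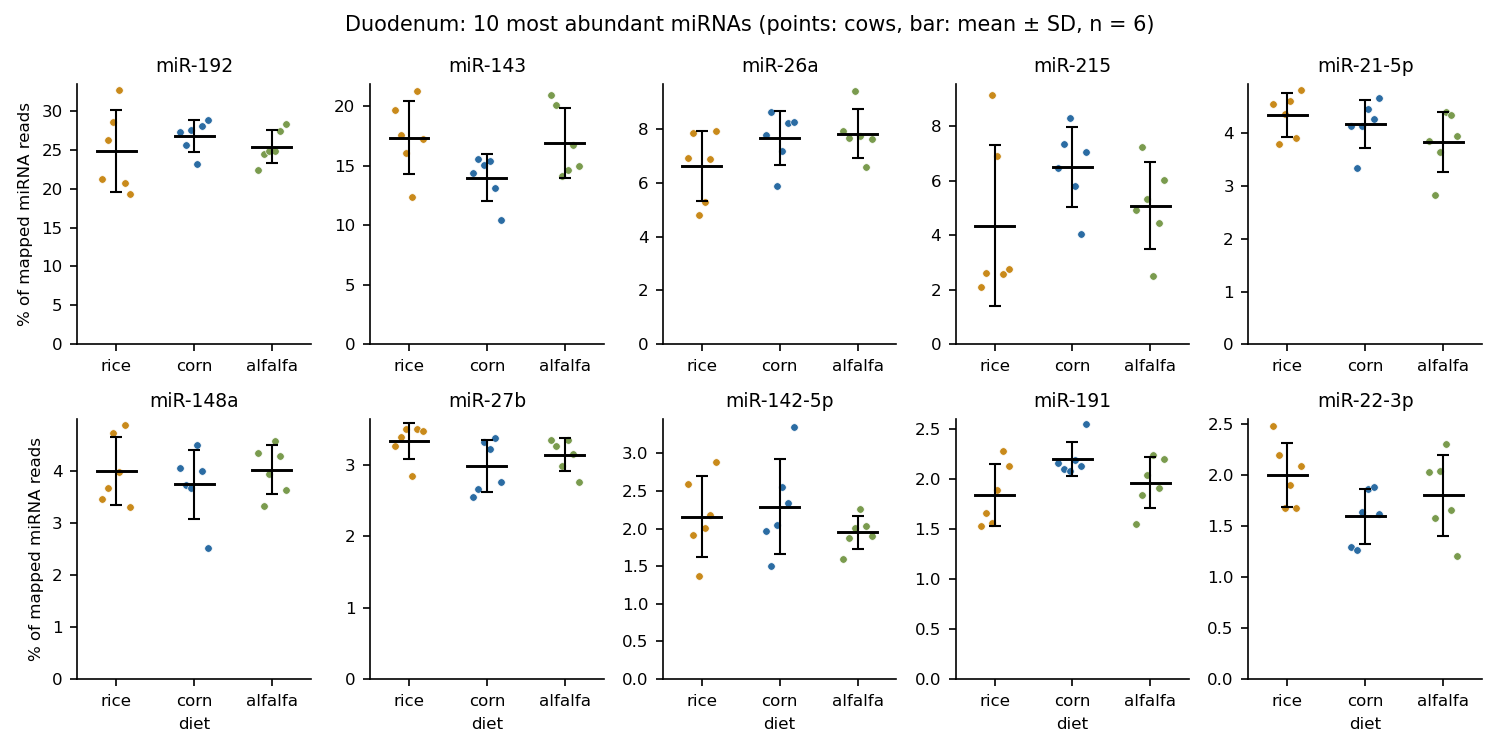
Share of mapped miRNA reads (percent, vertical axes from 0) of the 10 most abundant duodenum miRNAs in cows fed rice straw, corn stover and alfalfa hay, with 1 point per cow and the mean ± SD (n = 6) as bars. miR-192 leads in all diets, and miR-215 is spread from 2.10% to 9.15% among rice straw cows.

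No miRNA passed the test between rice straw and corn stover. Of 336 miRNAs tested with limma, 0 (0%) had an adjusted p under 0.05, and the smallest adjusted p was 0.0990. Only miR-2285l and miR-503-3p of the 338 listed were not tested, as they were not above 1 CPM in more than 50% of the 18 duodenum libraries. At an unadjusted p under 0.05 there were 45 miRNAs, 13.4% of those tested, with 34 (10.1%) higher and 11 (3.27%) lower with rice straw. This split turned over with scaling, to 25 higher and 33 lower with trimmed-mean scaling and to 16 higher and 40 lower with upper-quartile scaling. No other kind of test compared these diets miRNA by miRNA, but limma was repeated under the alternative settings listed with the processing. In simulated data for these libraries, with 329 miRNAs tested, 53 of 60 given a log2 change of 1 were recovered, with 1 false call. Each miRNA was drawn independently there and no smaller change was planted, so the recovery of smaller differences was not tested. The 95% interval of the difference lay within 1 log2 unit of 0 for 306 miRNAs and within 0.5 for 123. A change of 1 unit of log2(CPM + 1) was thus outside the interval for most miRNAs. For rare ones 1 unit is more than 2-fold in CPM, and 102 of the 336 had a mean under 10 CPM. A positive difference was found for 230 miRNAs (68.5%), with a median of 0.09 log2 units over all 336. This balance also depended on scaling. With trimmed-mean scaling 168 of 335 differences were positive, and with upper-quartile scaling 130 of 334.

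The miRNA of smallest p was miR-141, an epithelial miRNA of the miR-200 family that keeps cells in the epithelial state. Rice straw cows had 3577, 4587, 7867, 5463, 5485 and 3845 CPM, and corn stover cows 6492, 9437, 8219, 7357, 10176 and 6916 CPM. Of the 6 rice straw values, 5 were below every corn stover value, and only replicate 3 overlapped them. The means were 5137 ± 1554.5 (SD, n = 6) and 8099.5 ± 1459 (SD, n = 6), a ratio of 0.634, and the log2 difference was -0.69 (95% interval -1.02 to -0.36; limma adjusted p = 0.0990). The call changed with the libraries and the fit. Without rice straw replicate 3 the difference was -0.82 and the limma adjusted p 0.00252, and without rice straw replicates 1 and 3 it was -0.74 with an adjusted p of 0.0132. With all libraries and the replicate number as a block, the limma adjusted p was 0.0350. Over all libraries left out 1 at a time, the limma adjusted p ran from 0.00252 to 0.297. Alfalfa hay lay between the other diets, at 6296 ± 489 CPM (SD, n = 6). miR-200c, whose hairpin is the neighbour of miR-141 within 10 kb in the ARS-UCD2.0 annotation, had 912 ± 131 CPM with rice straw and 1113 ± 214 CPM with corn stover, a log2 difference of -0.28 ± 0.169 (SE).

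The other 9 miRNAs of the 10 with the smallest p were all higher on average with rice straw. Of the 336 miRNAs, 4 (1.19%) did not overlap between the diets in CPM, all with rice straw above, and all 4 were among these. They were miR-2284x, miR-660, miR-92a and miR-107. This separation depended on scaling. With trimmed-mean scaling miR-2284x, miR-660 and miR-107 overlapped between the diets, and with upper-quartile scaling all 4 did. miR-2284x belongs to a large family found in ruminants. It had 748, 778 and 952 CPM as the lowest, median and highest value with rice straw and 572, 632 and 664 CPM with corn stover, a log2 difference of 0.36 (95% interval 0.16 to 0.57; limma adjusted p = 0.156).

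For miR-660 the lowest, median and highest values were 1129, 1253 and 1475 CPM with rice straw and 956, 996 and 1095 CPM with corn stover, and the difference was 0.33 (95% interval 0.14 to 0.52; limma adjusted p = 0.156). Of its 5 listed neighbours within 10 kb, 2 had a positive difference. These were miR-502a and miR-502b (chosen after their values were seen), the latter at 4.46 ± 1.27 CPM and 2.79 ± 0.489 CPM. The window limits this count. miR-532, which has miR-502a and miR-188 within 10 kb, had a difference of 0.29, and that of miR-188 was positive too.

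miR-92a, a member of the miR-17 to miR-92a cluster that drives proliferation, had 4145, 5102 and 5547 CPM with rice straw and 3197, 3736 and 3950 CPM with corn stover. The difference was 0.42 (95% interval 0.16 to 0.68; limma adjusted p = 0.164), and alfalfa hay was intermediate at 4112 ± 815 CPM (SD, n = 6). Of its 10 listed neighbours within 10 kb, 1 had a positive difference. Among them, and chosen after their values were seen, were miR-106a, at 8.16 ± 6.18 CPM with rice straw and 12.1 ± 3.11 CPM with corn stover, and miR-363, at 16.5 ± 2.40 and 25.8 ± 13.1 CPM. The listed neighbours of these were miR-18b, miR-19b, miR-20b, miR-92a and each other. Neither had miR-17, miR-18a, miR-19a or miR-20a among its own neighbours, so the 10 do not all lie within 10 kb of each other. The count of 10 thus pools separate sets of hairpins, and the reads of miR-92a were not divided between them.

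miR-107, which acts on insulin signalling and lipid metabolism, had 367, 415 and 531 CPM with rice straw and 305, 338 and 365 CPM with corn stover, a log2 difference of 0.34 (95% interval 0.11 to 0.57; limma adjusted p = 0.197). Its relative miR-103 had 2648 ± 347 CPM with rice straw and 2228 ± 209 CPM with corn stover, a difference of 0.24 ± 0.107 (SE), but their ranges overlapped. The sequences of these relatives are near-identical, so reads could have been split between them.

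The remaining 5 of the 10 overlapped between diets. miR-6120-3p had 28.8, 34.8 and 44.1 CPM with rice straw and 20.3, 22.3 and 34.3 CPM with corn stover, with a log2 difference of 0.59 (95% interval 0.25 to 0.92; limma adjusted p = 0.156). miR-1839 had 136, 143 and 197 CPM with rice straw and 87.7, 118 and 138 CPM with corn stover, a difference of 0.39 (95% interval 0.12 to 0.66; limma adjusted p = 0.197). In both cases only 1 corn stover cow reached the rice straw range.

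The rare miR-1814c and miR-2310 were identical in all 12 libraries and in 15 of the 18, so they may be 1 signal. Both had 2.18, 3.44 and 3.89 CPM with rice straw and 0.942, 1.79 and 2.23 CPM with corn stover, a log2 difference of 0.63 (limma adjusted p = 0.164). At this level the values rest on few reads.

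miR-2887 had the largest difference of all miRNAs tested. Rice straw cows had 40.2, 6.63, 9.60, 18.1, 36.1 and 17.5 CPM and corn stover cows 5.55, 5.003, 16.2, 5.82, 8.53 and 5.82 CPM. The difference was 1.20 on the log2 scale, with a 95% interval from 0.39 to 2.01 (limma adjusted p = 0.197), and 2 rice straw cows accounted for the highest values. The other miRNA whose difference reached 1 in size, miR-2487, was chosen after its values were seen and had 22.8 ± 16.8 CPM with rice straw and 9.02 ± 4.22 CPM with corn stover.

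**Figure D3:**
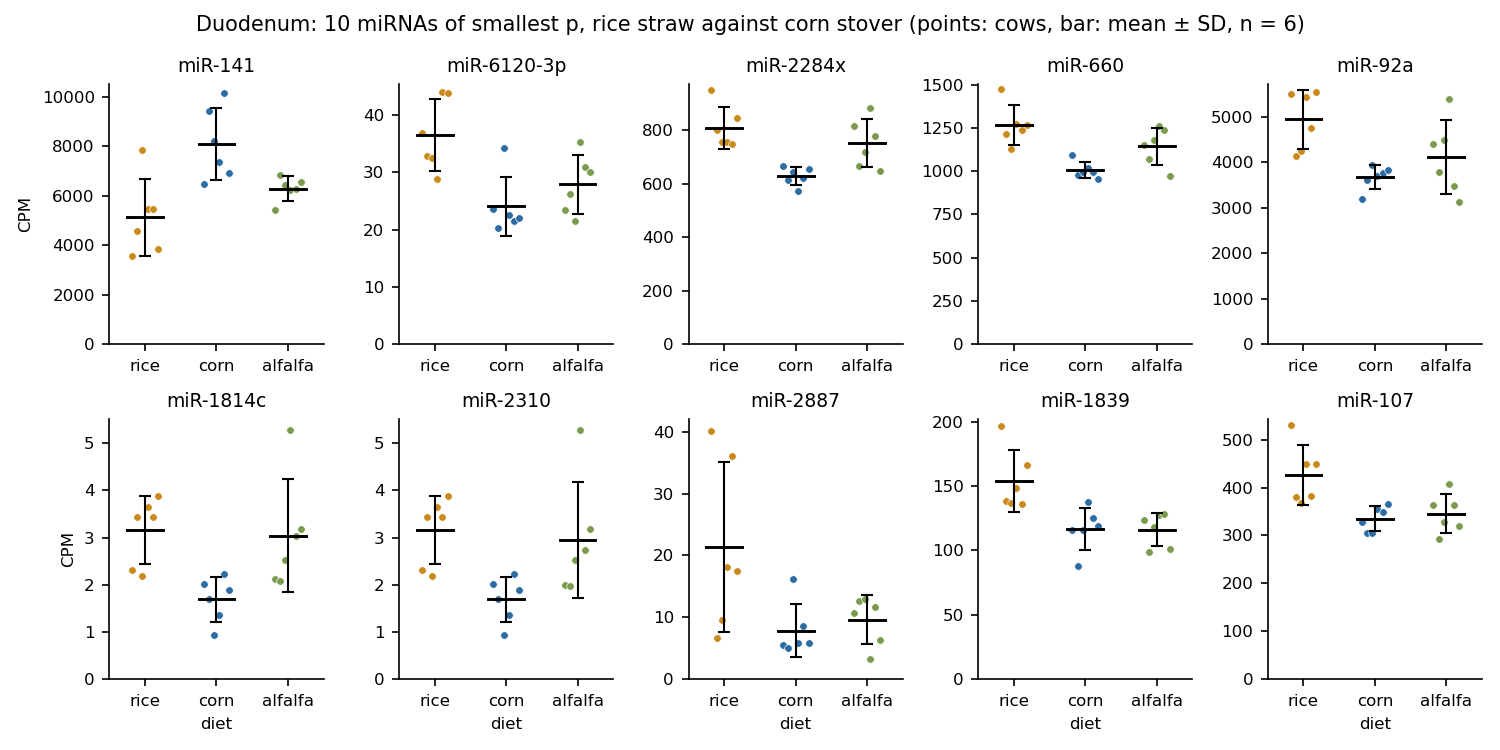
CPM (vertical axes from 0) of the 10 duodenum miRNAs with the smallest p between rice straw and corn stover, in cows of all diets, with 1 point per cow and the mean ± SD (n = 6) as bars. miR-141 is the only one of the 10 with a lower mean in rice straw cows, and the corn stover and rice straw points of miR-2284x, miR-660, miR-92a and miR-107 do not overlap.

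Lists of miRNAs with a shared cell type or function were described by their counts and medians, beside 0.09 as the median of all 336. For the intestinal epithelium, 7 of 8 miRNAs had a negative difference, the median was -0.14, and 2 had an unadjusted p under 0.05 (miR-141 and miR-215). The others ran from -0.28 for miR-200c to 0.02 for miR-429. All 8 were negative under both other scalings, and 3 then had an unadjusted p under 0.05.

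The list of smooth muscle and stroma had 4 of 5 differences positive (3 of 5 under both other scalings), with a median of 0.22 and 1 member (miR-143) at an unadjusted p under 0.05. No member was at that level under either other scaling or in the fit of 2 diets. The median was then 0.12 with trimmed-mean and 0.05 with upper-quartile scaling. miR-145, next to miR-143 in the genome and likewise a marker of smooth muscle, had 2308 ± 588 CPM with rice straw and 1970 ± 410 CPM with corn stover. miR-199a-3p had 4311 ± 1108 and 3454 ± 633 CPM. In striated muscle 2 of 4 were positive (1 of 4 under both other scalings), and the one with an unadjusted p under 0.05, miR-133a, had 202, 254 and 388 CPM with rice straw and 136, 184 and 291 CPM with corn stover. The summed level of the epithelial list had both its minimum and its maximum of the 12 libraries in rice straw cows. The stromal list had its minimum in a corn stover cow and its maximum in a rice straw cow. Whether the mix of cell types in the tissue piece had a part in these differences was not tested.

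For leukocytes, 6 of 7 differences were negative, and 7 of 7 under both other scalings, with a median of -0.24. Both miR-146a and miR-146b, which dampen innate immune signalling, had an unadjusted p under 0.05. Under both other scalings 4 of the 7 were lower at that level. miR-146b had 254, 349 and 803 CPM with rice straw and 459, 618 and 1004 CPM with corn stover, a log2 difference of -0.74 (95% interval -1.29 to -0.20; limma adjusted p = 0.212). miR-146a had 1724, 3039 and 4774 CPM and 3581, 3989 and 4773 CPM, a difference of -0.49 (95% interval -0.89 to -0.10; limma adjusted p = 0.256). One rice straw cow, replicate 5, had the highest rice straw value of both, above the corn stover mean. The neutrophil miRNA miR-223 had 180 ± 91.4 CPM with rice straw and 246 ± 36.9 CPM with corn stover.

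Among families of general function, let-7, which restrains proliferation, had 10 of 10 differences positive with a median of 0.18. This did not hold with other scalings, since 8 of 10 were positive with trimmed-mean scaling and 5 of 10 with upper-quartile scaling. let-7a-5p had the largest, at 8682, 10915 and 13479 CPM with rice straw and 7927, 8617 and 9609 CPM with corn stover (log2 difference 0.32; limma adjusted p = 0.312). The miR-10, miR-99/100 and miR-125 group, in which the miR-99/100 and miR-125 members share gene clusters with let-7 and the miR-10 members lie in HOX clusters, had 5 of 8 positive under all 3 scalings and a median of 0.23. In it, miR-125a had 1921, 2709 and 3991 CPM against 1644, 1892 and 2334 CPM, and miR-100 had 545, 863 and 1706 CPM against 478, 632 and 872 CPM.

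All 6 miRNAs of lipid and glucose metabolism were positive, with a median of 0.15, of which miR-103 and miR-107 had an unadjusted p under 0.05. With trimmed-mean scaling 5 of 6 were positive and 1 had an unadjusted p under 0.05. With upper-quartile scaling 2 of 6 were positive and none was at that level. In the cell cycle clusters 4 of 10 were positive (median -0.09), or 1 of 10 under both other scalings, and miR-92a stood apart from the rest, which ran down to -0.18 for miR-19a. Under both other scalings 4 of the 10 were lower at an unadjusted p under 0.05, against 0 with CPM alone. For the miR-30 family 5 of 7 were positive (median 0.09), or 3 of 7 with trimmed-mean and 2 of 7 with upper-quartile scaling. miR-30f had 77.4, 144 and 201 CPM with rice straw and 71.7, 95.6 and 129 CPM with corn stover, a log2 difference of 0.49 (limma adjusted p = 0.256).

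Of the p53 targets, 1 of 3 was positive, or 0 of 3 under both other scalings. miR-34a had 75.2, 95.5 and 111 CPM with rice straw and 81.3, 118 and 149 CPM with corn stover, a log2 difference of -0.33 (limma adjusted p = 0.342). Of the ruminant miR-2284 and miR-2285 families, 24 of 25 listed members were tested and 17 were positive (median 0.09), or 11 and 10 of 23 under trimmed-mean and upper-quartile scaling. With CPM alone, 1 of them in each direction had an unadjusted p under 0.05. Both other scalings gave 3 lower at that level, with 1 higher under trimmed-mean and 0 higher under upper-quartile scaling. miR-2285k, the lower one with CPM alone, had 81.5, 119 and 137 CPM with rice straw and 126, 139 and 232 CPM with corn stover, a difference of -0.41 (limma adjusted p = 0.256). Members of these families are close in sequence, so their reads could have been shared.

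The lists with no member at an unadjusted p under 0.05 were those of blood cells (1 of 3 positive, median -0.10), endothelium (1 of 2, -0.03), enteroendocrine and neural cells (5 of 8, 0.05), pancreas (1 of 2, -0.08), miR-29 (3 of 4, 0.03), miR-23/27/24 (4 of 7, 0.06), miR-21 (2 of 2, 0.06), hypoxia (1 of 1, 0.28) and miR-15/16 (3 of 6, -0.03). Of these, blood cells and hypoxia had the same counts under all 3 scalings, and the others had fewer positive differences under both other scalings. miR-29 and miR-23/27/24 then each had 1 lower member at an unadjusted p under 0.05. miR-15/16 had 1 such member with trimmed-mean and 2 with upper-quartile scaling. The hypoxia miRNA miR-210 had 46.5 ± 6.71 CPM with rice straw and 38.4 ± 8.18 CPM with corn stover. miR-375 of endocrine cells had 6975 ± 2356 and 6388 ± 1360 CPM, and the blood miRNA miR-451 had 106 ± 45.6 and 113 ± 44.6 CPM.

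Without rice straw replicates 1 and 3 some of these counts moved. Positive differences were then 5 of 5 for smooth muscle and stroma, 9 of 10 for let-7, 6 of 7 for miR-30, 6 of 8 for the miR-10 group, 2 of 2 for endothelium, 3 of 8 for enteroendocrine and neural cells, 6 of 7 for miR-23/27/24, 0 of 3 for the p53 targets and 15 of 24 for miR-2284 and miR-2285. At an unadjusted p under 0.05 there was then 1 leukocyte miRNA, no p53 target, 2 of let-7, 1 of miR-15/16, and 4 higher and 0 lower of miR-2284 and miR-2285. The leukocyte miRNA was neither miR-146a nor miR-146b, and the lowest leukocyte difference was then that of miR-223, at -0.80. Among the members named, the log2 difference was then -0.60 for miR-146b, -0.35 for miR-146a, -0.15 for miR-191, -0.19 for miR-34a and -0.33 for miR-2285k (limma adjusted p = 0.375, 0.413, 0.621, 0.634 and 0.393). These moved towards 0, whereas other named miRNAs moved away from it. The difference was then 0.62 for miR-30f, 0.80 for both miR-1814c and miR-2310, and -0.91 for miR-215 (limma adjusted p = 0.181, 0.112, 0.112 and 0.211).

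**Figure D4:**
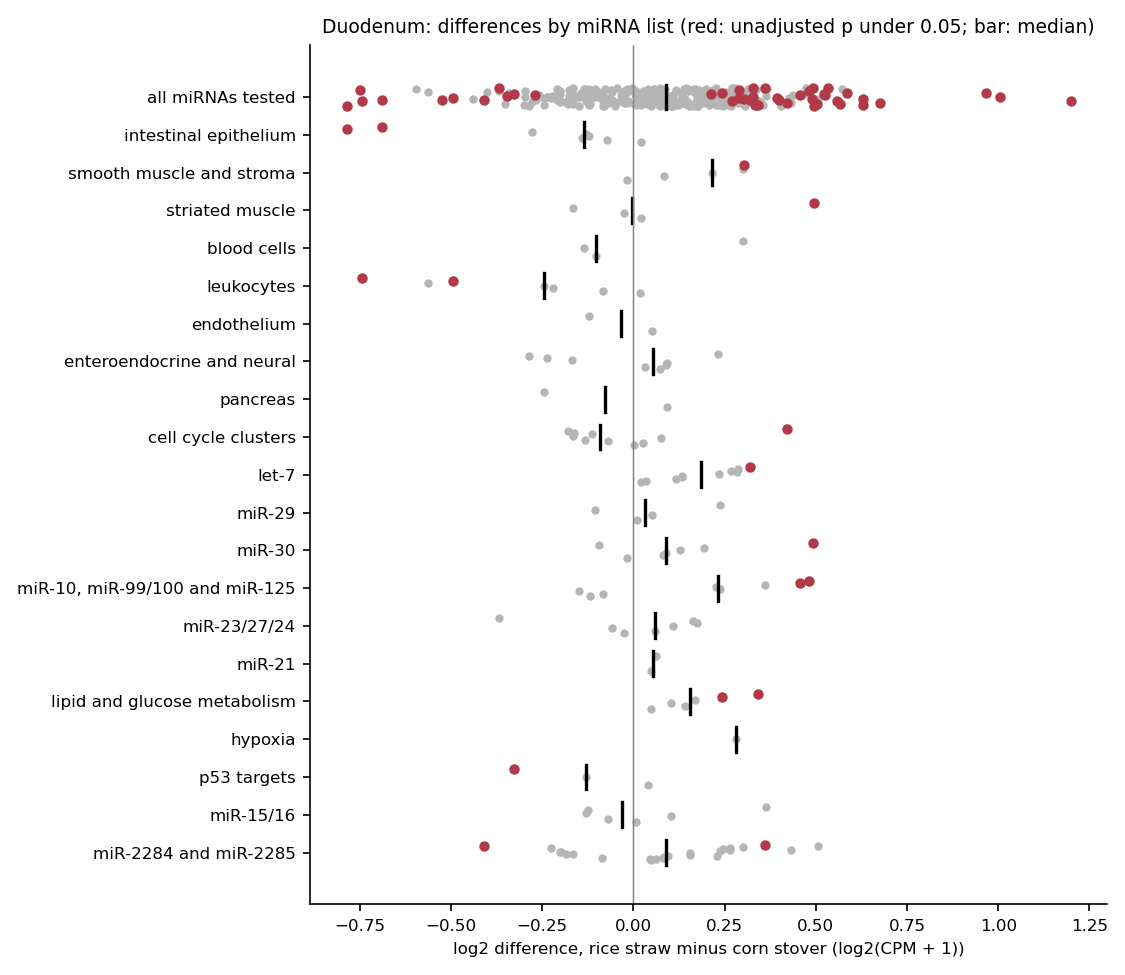
Log2 difference, rice straw minus corn stover (horizontal axis, log2(CPM + 1)), of each duodenum miRNA by list, with red points at an unadjusted p under 0.05 and a black bar at the median of each list. The epithelial and leukocyte medians lie at -0.14 and -0.24, against 0.09 for all 336 miRNAs.

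The alfalfa hay cows placed both diets. Rice straw minus alfalfa hay had 0 of 336 (0%) past the adjusted threshold and 36 (10.7%) at an unadjusted p under 0.05, and corn stover minus alfalfa hay had 0 (0%) and 13 (3.87%). These comparisons share libraries with the comparison of rice straw and corn stover, so their values are only set side by side. For miR-141 the log2 differences were -0.34 (rice straw minus alfalfa hay) and 0.35 (corn stover minus alfalfa hay), for miR-92a 0.28 and -0.14, and for miR-1839 0.40 and 0.00. The alfalfa mean lay between the other means for 9 of the 10 miRNAs of smallest p and for 40 of the 45 at an unadjusted p under 0.05, against 150 of all 336. As the 45 were chosen for the distance between the outer diets, this count has no test.

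The same diets were then compared in jejunum, the next stretch of the small intestine, where 96 of 336 miRNAs (28.6%) passed, 65 (19.3%) higher and 31 (9.23%) lower with rice straw (limma adjusted p under 0.05). In 3 of the 6 jejunum corn stover libraries, replicates 1, 2 and 6, the miRNAs outside the list took 221 to 440 CPM, against 42.4 to 70.2 CPM in the duodenum libraries of rice straw and corn stover. They stood apart in listed miRNAs too, for instance in these 3, chosen after their values were seen. miR-10a was at 83090 to 95217 CPM in them and at 26635.5 to 30764 CPM in the other 3 jejunum corn stover libraries, miR-196a at 197 to 324 CPM against 13.2 to 27.7 CPM, and miR-31 at 8.13 to 37.7 CPM against 337 to 478.5 CPM. Without these 3 libraries 35 miRNAs passed in jejunum. Whether the diet difference itself differed between tissues was tested with an interaction contrast in a limma fit of 36 libraries. It passed for 79 of 331 miRNAs (23.9%), 36 (10.9%) positive and 43 (13.0%) negative, and for 45 without the 3 libraries. Of the 79, 70 had opposite signs in the tissues, and 65 also passed in jejunum. The 79 were chosen for a large difference between tissues, so both counts are partly built in and nothing is read from them.

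Across all 329 miRNAs tested in both tissues the sign was the same for 144, and the differences correlated across miRNAs with Pearson's r = -0.29 and Spearman's rho = -0.31. The points share their libraries and scaling, and this is a description only. The median size of the difference was 0.17 log2 units in duodenum and 0.34 in jejunum.

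miR-92a had the smallest p of this test. In duodenum it was the rice straw cows that were higher (4145 to 5547 CPM against 3197 to 3950 CPM), whereas in jejunum rice straw cows had 3098, 4388 and 5327 CPM and corn stover cows 10300, 11571 and 14544 CPM. The jejunum ranges did not overlap, and the jejunum difference was -1.51. The difference between tissues was 1.93 (95% interval 1.56 to 2.29; limma adjusted p = 4.19e-10), and 2.01 without the 3 jejunum libraries. In the rice straw and corn stover libraries other than those of jejunum with corn stover, miR-92a was at most 5547 CPM.

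For miR-423-3p, miR-345-3p and miR-532 the jejunum corn stover cows were likewise above the jejunum rice straw cows. miR-423-3p had 307 to 769 CPM with rice straw and 213 to 384 CPM with corn stover in duodenum, but 242 to 412 CPM and 773 to 1183 CPM in jejunum, a difference between tissues of 2.18 (limma adjusted p = 1.34e-06). miR-345-3p had 22.3 to 29.98 CPM and 20.1 to 28.5 CPM in duodenum, against 21.7 to 31.2 CPM and 44.3 to 58.0 CPM in jejunum, a difference of 1.16 (limma adjusted p = 1.40e-05). For miR-532, next to miR-188 and miR-502a in the genome, the ranges were 162 to 228 CPM and 149 to 193 CPM in duodenum and 175 to 233 CPM and 243 to 387 CPM in jejunum, a difference of 0.93 (limma adjusted p = 0.000159).

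miR-1271 went the other way, with 34.1 to 76.2 CPM and 34.9 to 75.1 CPM in duodenum, and 35.2 to 54.3 CPM with rice straw but 6.98 to 11.9 CPM with corn stover in jejunum. Its difference between tissues was -2.26 (limma adjusted p = 1.34e-06). All 5 kept their sign and passed without the 3 jejunum libraries, at 2.12 for miR-423-3p, 1.21 for miR-345-3p, 1.14 for miR-532 and -2.04 for miR-1271. In each of these 5 the jejunum corn stover range did not overlap that of jejunum rice straw or of duodenum with either crop residue.

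Of the 45 duodenum miRNAs at an unadjusted p under 0.05, 26 also passed the test of the difference between tissues, against 79 of 331 (23.9%) over all miRNAs. That test holds the same duodenum libraries that chose the 45, so a larger share is built in and nothing is read from it. miR-141 was among them, at -0.91 (95% interval -1.43 to -0.39; limma adjusted p = 0.00914), with 3986 to 5247 CPM with rice straw and 2566 to 5610.5 CPM with corn stover in jejunum. With trimmed-mean scaling this difference was -0.84 and did not pass (limma adjusted p = 0.0531). miR-146a (-1.48) and miR-146b (-1.80) were lower with rice straw in duodenum and higher in jejunum, where their jejunum differences of 0.98 and 1.05 passed (limma adjusted p = 0.00471 and 0.0343). Without the 3 jejunum libraries the differences between tissues were -0.97 and -1.59 (limma adjusted p = 0.0285 and 0.0398). In those 3 libraries miR-146a was at 1163 to 1825 CPM, against 2544 to 4109.5 CPM in the other jejunum corn stover libraries. By contrast, the difference between tissues was 0.05 for miR-2284x (95% interval -0.29 to 0.38) and 0.13 for miR-660 (95% interval -0.19 to 0.46), and miR-6120-3p passed in jejunum in the same direction (log2 difference 0.79; limma adjusted p = 0.00277).

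**Figure D5:**
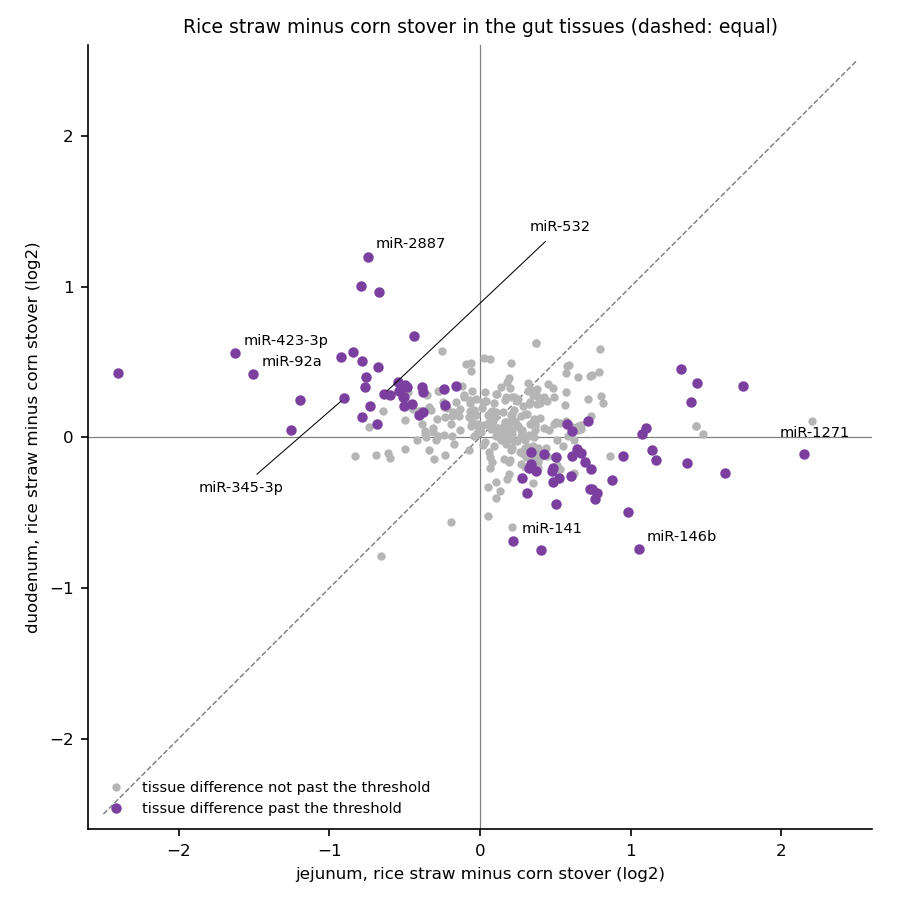
Log2 difference, rice straw minus corn stover, in jejunum (horizontal axis) and duodenum (vertical axis), with 1 point per miRNA tested in both tissues, purple where the difference between tissues passed an adjusted p of 0.05 and a dashed line where both are equal. Most purple points lie in the upper left or lower right, where the signs are opposite, and the spread is wider along the jejunum axis. The purple points were chosen by the difference between the axes, so opposite signs are partly built in.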

How the data were processed

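Small RNA of duodenum and jejunum was sequenced in 36 samples of 3 diets. Per the paper's methods and the submitters' processing notes, reads were filtered with CASAVA 1.8, trimmed with sRNAbench, and those over 15 nt aligned to bovine precursors of miRBase 22 (seed 20, 2 mismatches, up to 10 mappings). The deposited values are CPM, which the authors computed by dividing the reads of a miRNA by all reads mapped to annotated miRNAs in that library. The files are described in the paper as holding raw counts, whereas their columns held fractional CPM. PCR reads carry no molecular identifiers, so depth limits cover counting error only.

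Here miRNAs above 1 CPM in over 50% of the libraries of a fit were compared as log2(CPM + 1) with limma 3.58.1 in R 4.3.3 (lmFit, eBayes with trend, two-sided), Benjamini-Hochberg adjusted over all miRNAs tested, threshold 0.05. All fold changes are on the log2(CPM + 1) scale, which understates those of rare miRNAs. The duodenum fit held 18 libraries, the jejunum fit 18 and the interaction fit 36. The script was tested on simulated data. Library measures were compared by exact permutation (scipy 1.17.1). Tables and components were made with Python 3.11.15, numpy 2.4.6 and pandas 2.3.3. Neighbouring hairpins came from the RefSeq annotation of ARS-UCD2.0, in which 336 of 338 miRNAs matched; the build used by the authors is not given in the sources used here.

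Named miRNAs were those past the threshold (none), the 10 of smallest p, the 10 most abundant, the listed members of 21 lists (20 had any), and the 5 of smallest p for the difference between tissues. The diets, members and lists were chosen with earlier results of these data known. Alternatives were pseudocounts of 0.1 and 5 CPM, no filter or a mean of 10 CPM, trimmed-mean and upper-quartile scaling, 2 diets only, a replicate block and leaving out each library. Rumen, liver and mammary gland were not analysed here.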

Additional observations from a re-analysis of the deposited data

Results flagged for a closer look

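There were 7 cases in which a library lay far from the rest of their group of 6 by Dixon's test, of 74 groups looked at, and chance alone marks about 1 in 20. In corn stover, replicate 3 was far above the other libraries for miR-6120-3p (34.3 CPM, next 23.6) and miR-2887 (16.2 CPM, next 8.53), replicate 6 for miR-191 (25468 CPM, next 21899) and miR-2285k (232 CPM, next 153), and replicate 2 for miR-1271 (75.1 CPM, next 49.8). In rice straw, replicate 5 was far above the others for miR-100 (1706 CPM, next 964), and replicate 4 far below them for miR-27b (28399 CPM, next 32623).

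For 17 of the named miRNAs the difference between rice straw and corn stover itself differed between duodenum and jejunum (limma interaction contrast, adjusted p under 0.05). Values are the duodenum log2 difference minus that of jejunum. It was positive for miR-92a (1.93), miR-2887 (1.94), miR-107 (0.50), miR-143 (0.68), miR-22-3p (0.72), miR-423-3p (2.18), miR-345-3p (1.16), miR-532 (0.93) and let-7a-5p (0.56). It was negative for miR-141 (-0.91), miR-26a (-0.70), miR-191 (-0.79), miR-1271 (-2.26), miR-100 (-0.88), miR-146a (-1.48), miR-146b (-1.80) and miR-2285k (-1.17). Without jejunum corn stover replicates 1, 2 and 6, which stood apart in both unlisted and listed miRNAs, 4 of these 17 no longer passed, namely miR-2887 (1.68, limma adjusted p = 0.0701), miR-26a (-0.50, 0.0629), miR-191 (-0.51, 0.0666) and miR-100 (-0.78, 0.124). With trimmed-mean scaling miR-141 (-0.84, limma adjusted p = 0.0531) and miR-100 (-0.81, 0.0810) did not pass. The calls of let-7a-5p, miR-100 and miR-107 were near the threshold and were lost when any of several single libraries was left out, in 15, 14 and 12 settings in all, with limma adjusted p up to 0.0782, 0.124 and 0.0811.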

How the results depend on the processing

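The count of 0 between rice straw and corn stover in duodenum held under both pseudocounts, both filters, both scalings and the fit of 2 diets. It was 1 (miR-141) with a replicate block (limma adjusted p = 0.0350), without rice straw replicate 3, and without rice straw replicates 1 and 3, a choice made after seeing the data, and 0 to 1 leaving out 1 library at a time, with 31 to 70 at an unadjusted p under 0.05. Rice straw minus alfalfa hay gave 0 to 2 (2 without rice straw replicate 6), and corn stover minus alfalfa hay 0. Jejunum gave 96, or 71 to 119 leaving out 1 library, and the difference between tissues 79, or 66 to 80. Both shrank, to 35 and 45, without 3 jejunum corn stover libraries, a choice also made after seeing the data that leaves fewer samples; other causes were not tested. With the block, jejunum gave 86 and the difference between tissues 86. Same-numbered duodenum libraries of the diets correlated at -0.08 to 0.46, over 0.1 in 3 of 6 pairs, and 2 of 6 correlated best with their own number, so those numbers were not taken as pairs. Between duodenum and jejunum 6 of 6 rice straw pairs (6 best with their own number) and 4 of 6 corn stover pairs (3 best) were over 0.1. The tissues came from the same cows, but the labels do not tie the numbers to cows, and the test between tissues treated its libraries as independent; the 86 above had the cow (diet and number) as a block.

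Some log2 differences near 0 changed sign. Upper-quartile scaling gave -0.11 for miR-21-5p, -0.07 for miR-148a, -0.01 for miR-27b and -0.04 for the tissue difference of miR-2284x, and trimmed-mean scaling -0.03 for miR-21-5p. Leaving out 1 library at a time gave 0.00 to 0.10 for miR-21-5p, -0.01 to 0.16 for miR-148a, -0.20 to 0.04 for miR-142-5p, -0.26 to 0.01 for miR-1271 and 0.00 to 0.10 for the tissue difference of miR-2284x. The libraries whose absence turned the sign were corn stover replicates 2 (miR-21-5p, miR-1271) and 6 (miR-148a, miR-142-5p), rice straw replicates 3 (miR-142-5p) and 1 (miR-2284x) and jejunum corn stover replicate 5 (miR-2284x). Upper-quartile scaling moved the median of all differences by -0.15 and trimmed-mean scaling by -0.09. The planned edgeR and DESeq2 tests of counts were not run. The files hold CPM, and although the low values fell on steps of 1 read, too few lay near the first steps to meet the bar set for using them as counts, so the read totals given are inferred. Depth limits the rarest miRNAs, with a median SE of 0.208 under 10 CPM and 0.137 over 1000 CPM.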

Other observations

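Some duodenum miRNAs varied far more between cows of 1 diet than between diets; these were chosen after their values were seen. miR-2332 ran from 2.05 to 83.4 CPM among rice straw cows and from 2.83 to 34.5 CPM among corn stover cows, with a log2 difference of 0.03 ± 0.748 (SE). miR-10a, an abundant HOX cluster miRNA, ran from 3468 to 26674 CPM and from 4202 to 24774 CPM, with a difference of -0.12 ± 0.505 (SE). miR-124a and miR-124b, known from neurons, were identical in all 18 duodenum libraries and ran from 3.46 to 31.2 CPM and from 2.40 to 17.8 CPM.

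The median spread between cows was similar in the diets, though the SD was larger with rice straw than with corn stover for 198 of the 338 miRNAs. The median SD of log2(CPM + 1) over all miRNAs was 0.307 with rice straw, 0.290 with corn stover and 0.264 with alfalfa hay.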
